A study of Homo sapiens with 12 samples.

Results

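The clustered histone genes supply the histones that package newly copied DNA, and 39 of the 69 such genes named by the probe table gave a testable signal in U2OS osteosarcoma cells treated with strigolactone analogues. The members were taken by name: every gene of the H1-1 to H1-6, H2AC, H2BC, H3C and H4C families, which older annotation writes as HIST1H to HIST4H. Of the 69 genes, 55 lie in the large cluster on chromosome 6, 11 and 2 in the clusters on chromosome 1, and 1 on chromosome 12. The 39 tested genes were 2 of 6 H1, 10 of 17 H2A, 10 of 18 H2B, 7 of 13 H3 and 10 of 15 H4 genes, against 12290 genes tested in all.

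U2OS is an established human osteosarcoma line, and all samples were of this line. The cells received 5 ppm of ST362 or of MEB55, synthetic analogues of the plant hormones called strigolactones, dissolved in acetone, and control cells received the acetone vehicle alone. Exposure lasted 6 h or 24 h, which gave 6 groups of 2 arrays: ST362 6 h, MEB55 6 h, vehicle 6 h, ST362 24 h, MEB55 24 h and vehicle 24 h. The dose was matched by mass, and by the paper's conversion the molar dose of MEB55 was the higher, so the analogues were not compared at equal molar doses. The paper speaks of duplicate sample sets and, for the earlier time, of independent experiments, but no label ties an array to a culture or an experiment, so every p-value measures the spread between these arrays, which may be technical.

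Replication-dependent histone genes are short and have no introns in their coding part, and nearly all copies of H4 encode the same protein. They are transcribed mainly in S phase, under NPAT and the cyclin E and CDK2 kinase, and their mRNA ends in a stem-loop that the protein SLBP binds, in place of a poly(A) tail. H2A, H2B, H3 and H4 build the nucleosome core, and H1 binds the DNA between cores. When DNA synthesis stops, these mRNAs are degraded. The labels name the Illumina TotalPrep kit, which copies RNA from an oligo(dT) primer, so the arrays read these genes only as far as their RNA was primed. Polyadenylated transcripts have been described for some of the clustered genes, among them H1-2, H2AC6, H2BC5, H2BC12 and H2BC21.

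The classes also differ in the DNA in front of their genes. In the 250 bases upstream of the annotated start, read from RefSeq (GRCh38.p14) for 64 of the 69 genes, 1 window a gene, the letters GGTCCG, a core of the H4-specific element bound by HINFP, occurred on either strand in 12 of 13 H4 windows and in 3 of the other 51, against 9.33% of 27305 windows of all genes. The octamer ATTTGCAT, known from H2B promoters as a site of the Oct-1 protein, occurred in 14 of 18 H2B, 11 of 16 H2A, 1 of 11 H3 and none of the H1 and H4 windows, against 1.66% of all windows. The letters AAACACA, known as the H1 box, occurred in 6 of 6 H1 windows and in no other histone window, against 4.95% of all windows. CCAAT stood in all 51 windows of H1, H2A, H2B and H3 but in 3 of 13 H4 windows, against 33% of all windows, and TATAAA in 42 of 64 histone windows, against 11.1%. No motif of the 5 is contained in another, and head-to-head H2A and H2B genes can share 1 octamer. In the 12 H4 windows the letters GGTCCG began 44 to 47 bases upstream of the start. The 140 bases before the start are printed for H4C2, H4C14 and H4C12, because the H4 class had the lowest class median with ST362 and these genes are described by array, and for 1 gene each of H2A, H2B and H1. Capitals mark GGTCCG in H4, the octamer in H2A (read on the opposite strand) and H2B, and AAACACA in H1.
H4C2 (chr6:26027284-26027423, minus strand): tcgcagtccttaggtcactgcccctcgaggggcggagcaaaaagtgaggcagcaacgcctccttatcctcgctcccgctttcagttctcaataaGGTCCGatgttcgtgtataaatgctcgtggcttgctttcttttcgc
H4C14 (chr1:149832517-149832656, plus strand): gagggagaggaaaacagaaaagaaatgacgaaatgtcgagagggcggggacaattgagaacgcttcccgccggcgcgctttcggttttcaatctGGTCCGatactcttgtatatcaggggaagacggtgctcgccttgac
H4C12 (chr6:27831561-27831700, minus strand): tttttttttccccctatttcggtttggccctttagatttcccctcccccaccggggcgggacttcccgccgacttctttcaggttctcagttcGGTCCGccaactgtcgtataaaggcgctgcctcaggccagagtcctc
H2AC6 (chr6:26124032-26124171, plus strand): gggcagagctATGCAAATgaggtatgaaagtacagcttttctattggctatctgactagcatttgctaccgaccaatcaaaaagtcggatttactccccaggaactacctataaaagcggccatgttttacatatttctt
H2BC12 (chr6:27146859-27146998, minus strand): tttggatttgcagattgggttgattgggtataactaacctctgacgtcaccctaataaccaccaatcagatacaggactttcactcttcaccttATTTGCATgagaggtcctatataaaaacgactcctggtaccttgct
H1-2 (chr6:26056471-26056610, minus strand): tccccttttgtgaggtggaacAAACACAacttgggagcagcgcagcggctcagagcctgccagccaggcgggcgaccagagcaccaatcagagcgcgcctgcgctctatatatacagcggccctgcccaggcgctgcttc

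Levels are log2 signals after background correction and quantile normalization, and each gene was read from its brightest detected probe, where detected means a detection p under 0.05. The arrays detected 42.7% to 47.4% of their probes. Of the 39 histone genes, 29 were detected on all 12 arrays, and 20 never exceeded a raw signal of 150 on any array, where the median probe of an array read 80.7 to 90.4. A gene entered the tests if both arrays of 1 group detected it. This let in H4C2 and H4C9 only through analogue groups and H2AC8, H2AC25 and H2BC7 only through vehicle groups, so these 5 had to differ between groups to some degree. The 30 genes not tested were detected on at most 5 arrays, 18 of them on none.

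Of the markers of a mesenchymal and bone line, VIM, COL1A1, SPARC, ALPL and CD44 were detected on all 12 arrays, RUNX2 and FN1 on 7 and COL1A2 on 1. The epithelial marker EPCAM was detected on all 12 arrays and CDH1 and KRT19 on 3 each, while PTPRC, CD3E and TERT were detected on none and the endothelial markers PECAM1 and CDH5 on 1 each. The 2 arrays of an analogue group were not alike, and the arrays did not sort by their labelled groups. HSPA6, a heat-shock chaperone, lay 5.95 above the vehicle mean (log2) on ST362 6 h replicate 1, 6.45 on MEB55 6 h replicate 1, 6.51 on ST362 24 h replicate 2 and 7.99 on MEB55 24 h replicate 2. On the partner arrays it lay 0.44, 1.06, 0.20 and 0.25 above it, in the same order of groups. Each analogue array correlated better with an array of another group than with its own replicate: ST362 6 h replicate 1 with MEB55 6 h replicate 1 (r = 0.991 over all tested probes), ST362 24 h replicate 2 with MEB55 24 h replicate 2, ST362 6 h replicate 2 with ST362 24 h replicate 1 and MEB55 6 h replicate 2 with MEB55 24 h replicate 1 (0.989 each), against 0.971 to 0.977 with the own replicate. Every value at 6 h or 24 h takes the labels as given; whether the time and replicate labels of these arrays are right was not tested. Fewer cells in S phase and less histone RNA per cell cannot be told apart in such bulk RNA.

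No histone gene passed the test in any comparison of labelled groups with vehicle, as no tested gene did. With limma and Benjamini-Hochberg adjustment over all tested probes, 0 of 39 histone genes passed an adjusted p under 0.05 for ST362 or MEB55 against vehicle at 6 h or at 24 h, where 0% of all genes passed. At 6 h, 3 histone genes had an unadjusted p under 0.05 with ST362, all lower, against 6.08% of all genes, and 1 had it with MEB55, higher, against 4.89%. At 24 h, 2 had it with ST362, both lower, against 8.44% of all genes, and 2 with MEB55, 1 in each direction, against 5.72%. These shares of 39 are near those of all genes. The median log2 change of the 39 genes was -0.02 for ST362 and 0.04 for MEB55 at 6 h, and -0.19 for ST362 and -0.03 for MEB55 at 24 h, where the median of all genes was between -0.03 and 0.01.

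The histone genes behind these unadjusted values were few. With ST362 at 6 h they were H4C1 at -0.84 ± 0.25 (log2 change ± SE), H2AC7 at -0.61 ± 0.22 and H2AC6 at -0.55 ± 0.24, each with an adjusted p of 0.847 in limma. Neither ST362 6 h array detected H4C1, so its level there is only bounded. By the group means it was at least 1.67-fold lower than in vehicle 6 h, a value that carries no sampling error. With ST362 at 24 h they were H4C1 at -0.81 ± 0.25 and H2AC4 at -0.48 ± 0.20, with adjusted p = 0.567 and 0.635 in limma. With MEB55 the gene was H3C6 at 6 h, at 0.49 ± 0.22, and at 24 h H3C13 at 0.48 ± 0.20 and H4C1 at -0.64 ± 0.25, with adjusted p of 0.986, 0.922 and 0.889 in limma. The 95% interval of a change at 1 time reached a median of 0.59 to either side over the 39 genes, so changes of that size could not be told from 0 with 2 arrays a group.

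**Figure D1:**
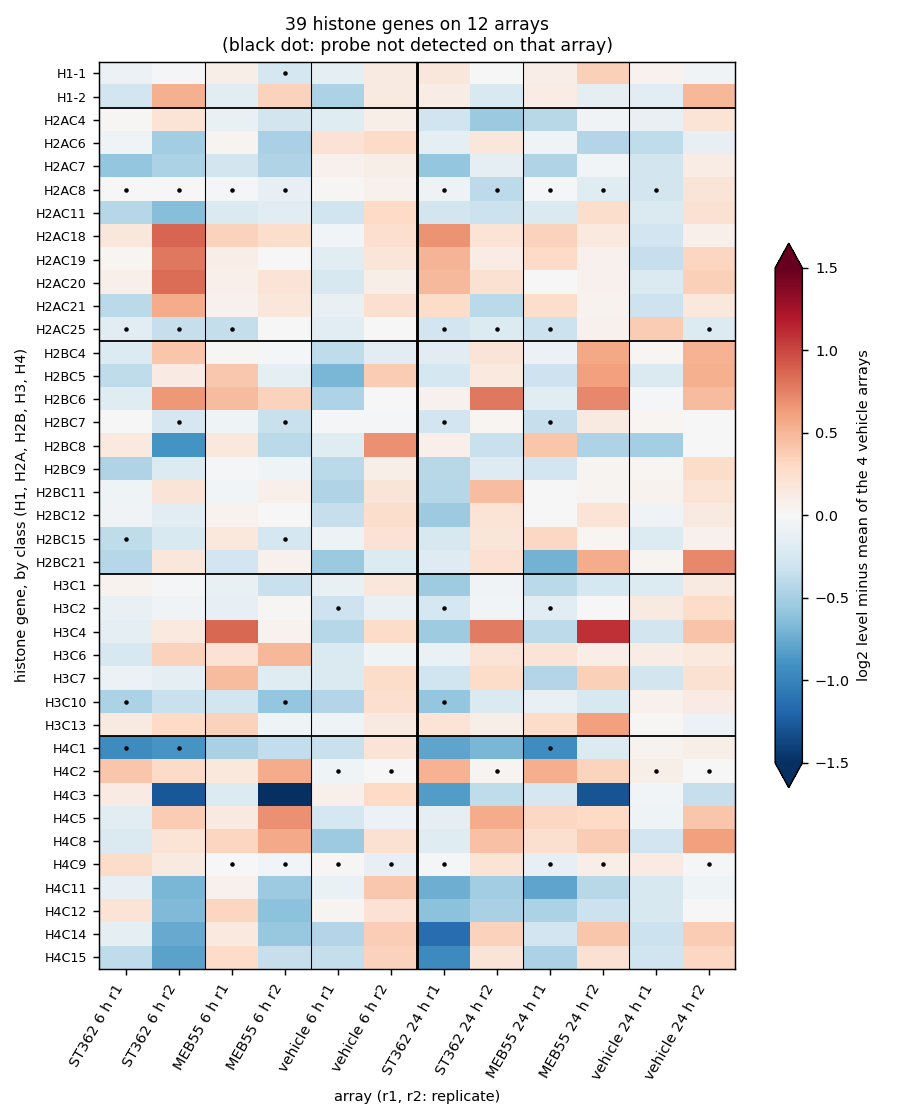
Log2 level of the 39 histone genes (rows, by class) on the 12 arrays (columns), each minus the gene's mean over the 4 vehicle arrays; red is higher, blue lower, and a black dot marks an array that did not detect the probe. H4C1 lies below 0 on all 8 analogue arrays, and H4C3 reaches -1.51 on MEB55 6 h replicate 2.

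The effects were also fitted over both times, 4 arrays of an analogue against 4 vehicle arrays. This fit had no term for time or replicate number and took the 4 arrays of a treatment as independent. Deviations from the group mean were nevertheless correlated across the times. Between same-numbered arrays of 6 h and 24 h, r was 0.37 for vehicle, -0.37 for ST362 and -0.39 for MEB55. The p-values of this fit may therefore be too small. With ST362 the 39 genes had a median log2 change of -0.11, with 16 above and 23 below 0, beside -0.01 over all genes. One histone gene, H4C1, passed the test, in the lower direction, where 0.399% of all genes passed lower and 0.366% higher (49 and 45 genes, or 79 and 42 with scaling to the 75th percentile); 6 histone genes lower and 3 higher had an unadjusted p under 0.05, against 950 and 955 of all genes. H4C1 was also the 1 histone gene whose ST362 arrays all lay below the vehicle arrays, against 4.99% of all genes; none lay wholly above, against 4.83%. With MEB55 the median was -0.02, with 19 above and 20 below 0, and 0 of 39 genes passed in limma, where 0.301% of all genes passed higher and 0.26% lower; 4 had an unadjusted p under 0.05, against 1503 of all 12290 genes. H4C2 was the 1 histone gene whose MEB55 arrays all lay above the vehicle arrays, against 3.93% of all genes, and none lay wholly below, against 3.86%. With at most 1 gene of 39 past the test or without overlap in each direction, these counts do not set the histone genes apart from the background.

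Histone H4 was the class with the lowest median with ST362. Its 10 genes had a median change of -0.41, with 4 above and 6 below 0, beside 0.02 over 2 H1 genes, -0.13 over 10 H2A, -0.11 over 10 H2B and -0.06 over 7 H3 genes. With MEB55 the H4 median was -0.08, beside 0.06 for H1, -0.09 for H2A, 0.04 for H2B and 0.05 for H3. Within H4 the changes with ST362 ranged from -0.82 for H4C1 to 0.32 for H4C2. Array by array, the median of the H4 genes minus their vehicle means was -0.13 and -0.67 in ST362 6 h, -0.67 and 0.11 in ST362 24 h, 0.14 and -0.36 in MEB55 6 h, -0.27 and 0.16 in MEB55 24 h, -0.18 and 0.22 in vehicle 6 h and -0.16 and 0.04 in vehicle 24 h. The ST362 arrays with the lowest H4 median, 6 h replicate 2 and 24 h replicate 1, had the lowest medians of the 23 S-phase genes, -0.59 and -0.66, where the other 10 arrays lay between -0.22 and 0.11, and both had an HSPA6 within 0.44 of vehicle. The part of either in the H4 values was not tested.

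H4C1 (older name HIST1H4A), at chromosome 6, 26021649 to 26022050 in GRCh38, was the gene that passed the test. Its log2 level was 4.38 and 4.45 on the ST362 6 h arrays and 4.53 and 4.64 on the ST362 24 h arrays, 4.83, 4.95, 4.39 and 5.11 on the MEB55 arrays of 6 h and 24 h, and 4.99, 5.52, 5.37 and 5.41 on the vehicle arrays of 6 h and 24 h. All ST362 values lay under the lowest vehicle value, and 1 of 4 MEB55 values lay inside the vehicle range. H4C1 fell with ST362, by a log2 change of -0.82 ± 0.16 (SE, 4 against 4 arrays, adjusted p = 0.0378 in limma); with MEB55 the change was -0.50 ± 0.16 (adjusted p = 0.231). The probe is dim, at a raw signal of at most 108.3, and was detected on 2 of 4 ST362, 3 of 4 MEB55 and 4 of 4 vehicle arrays. The call was lost when any of the 4 ST362 or 4 vehicle arrays or MEB55 6 h replicate 1 was left out (adjusted p 0.0524 to 0.134, change -0.90 to -0.76), and held without any 1 of the other 3 MEB55 arrays. Without background correction the change was -0.28 (adjusted p = 0.0726).

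H4C2 (HIST1H4B), which neighbours it in the chromosome 6 cluster and whose promoter is printed above, lay on the other side of 0. Its log2 level was 4.83, 4.70, 4.93 and 4.45 with ST362, 4.57, 4.97, 4.96 and 4.74 with MEB55, and 4.34, 4.39, 4.49 and 4.40 with vehicle, in the order 6 h then 24 h. The 4 MEB55 values lay above all vehicle values, and 1 ST362 value lay inside the vehicle range. No vehicle array detected it, while 3 of 4 ST362 and 4 of 4 MEB55 arrays did. With vehicle values under the lowest detected level of their array raised to it, the mean was 1.16-fold higher with ST362. With MEB55 it was 1.23-fold higher. These folds carry no sampling error, and the ST362 mean includes the array that did not detect the probe. The fitted changes of 0.32 ± 0.13 and 0.40 ± 0.13 had adjusted p of 0.313 and 0.25 in limma. H4C2 is 1 of the 2 genes that entered the tests only through analogue groups, which favours a higher analogue level.

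**Figure D2:**
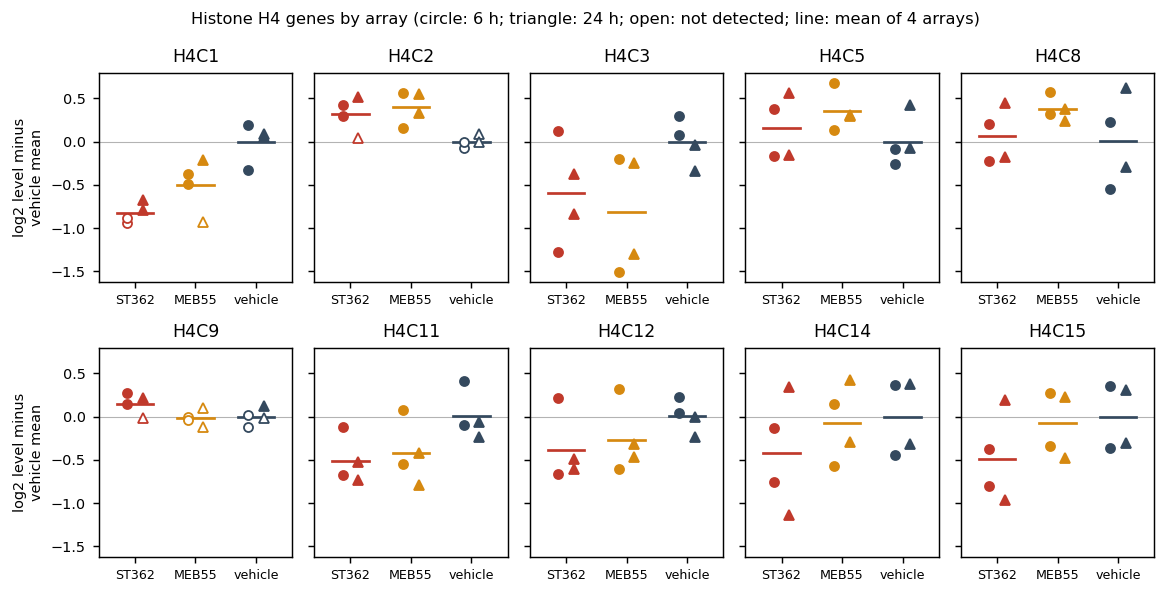
Log2 level of the 10 tested H4 genes minus the vehicle mean, by treatment; circles are 6 h arrays, triangles 24 h arrays, open symbols arrays that did not detect the probe, and lines the means of 4 arrays. H4C1 and H4C11 sit mostly below 0 with both analogues, H4C2 above, and H4C3, H4C14 and H4C15 spread widely within each analogue.

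H4C3 (HIST1H4C), at chromosome 6, 26103933 to 26104337, differed by more than 1 log2 unit between the replicates of ST362 6 h, MEB55 6 h and MEB55 24 h. Its log2 level was 12.91 and 11.52 on the ST362 6 h arrays, 11.95 and 12.41 on the ST362 24 h arrays, 12.59 and 11.28 on the MEB55 6 h arrays and 12.54 and 11.49 on the MEB55 24 h arrays. On the vehicle arrays it was 12.87 and 13.09 at 6 h and 12.75 and 12.45 at 24 h. The lowest values all came from analogue arrays, but 1 ST362 and 2 MEB55 values lay inside the vehicle range. The changes were -0.59 ± 0.32 with ST362 and -0.82 ± 0.32 with MEB55 (adjusted p = 0.467 and 0.36 in limma). The low arrays were not those of 1 HSPA6 level: MEB55 6 h replicate 2 at 11.28 had an HSPA6 of 1.06 above vehicle, and MEB55 24 h replicate 2 at 11.49 one of 7.99.

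H4C11 and H4C12 gave the same direction on most analogue arrays. H4C11 was 6.18, 5.63, 5.58 and 5.78 with ST362, 6.37, 5.75, 5.52 and 5.89 with MEB55, and 6.21, 6.71, 6.06 and 6.24 with vehicle. Its changes were -0.51 ± 0.20 with ST362 and -0.42 ± 0.20 with MEB55 (adjusted p = 0.275 and 0.473 in limma), and only the first arrays of ST362 6 h and MEB55 6 h reached the vehicle range. H4C12 changed by -0.39 ± 0.22 with ST362 and -0.27 ± 0.22 with MEB55 (adjusted p = 0.477 and 0.742 in limma), with the same 2 arrays inside or above the vehicle range, 7.47 to 7.93. Over the 12 arrays these 2 genes correlated at r = 0.91, a description of arrays that share treatment and labelling.

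H4C14 and H4C15 (HIST2H4A and HIST2H4B) are near-identical copies on chromosome 1, so their probes may read the same RNA, and their r of 0.95 over the 12 arrays is not that of 2 independent genes. H4C14 was 8.22, 7.59, 7.20 and 8.69 with ST362, 8.49, 7.78, 8.05 and 8.77 with MEB55, and 7.91, 8.72, 8.03 and 8.73 with vehicle. In each analogue group the array of high HSPA6 had the higher value, and in each vehicle group, with HSPA6 between -0.14 and 0.18, replicate 2 did; the part of the heat-shock difference in these values was not tested. The change was -0.42 ± 0.31 for H4C14 and -0.49 ± 0.26 for H4C15 with ST362, and -0.07 ± 0.31 and -0.08 ± 0.26 with MEB55, with adjusted p of 0.607, 0.451, 0.965 and 0.952 in limma. H4C5, H4C8 and H4C9 lay above 0 with ST362, between 0.06 and 0.16, and between -0.02 and 0.38 with MEB55. None passed. H4C9 entered the tests only through ST362 6 h, which favours a higher ST362 level, and was detected on 0 MEB55 arrays and 1 vehicle array.

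Of the 4 tested H2A genes in cluster 2 on chromosome 1, H2AC18, H2AC19 and H2AC20 had the most positive changes of the 39 genes with ST362, and H2AC21 stood at 0.00. H2AC18 was 9.92, 10.62, 10.41 and 9.95 with ST362, 10.09, 10.00, 10.09 and 9.89 with MEB55, and 9.70, 9.99, 9.45 and 9.82 with vehicle. Of the vehicle arrays only 6 h replicate 2 reached ST362 values. The change was 0.48 ± 0.17 with ST362 and 0.28 ± 0.17 with MEB55 (adjusted p = 0.217 and 0.616 in limma), and a second probe gave 0.48 and 0.16. H2AC19 is a near-identical copy (r = 0.91 over the arrays), and its probe may read the same RNA. H2AC19 and H2AC20 changed by 0.36 ± 0.18 and 0.41 ± 0.17 with ST362 and by 0.11 ± 0.18 and 0.09 ± 0.17 with MEB55, and neither passed (adjusted p = 0.428, 0.326, 0.899 and 0.917 in limma).

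The 5 tested H2A genes of the chromosome 6 cluster lay below 0 with ST362, as 6314 of all 12290 genes did. Of these 5, H2AC8 entered the tests only through vehicle 6 h, which favours a lower analogue level, and 0 ST362 arrays detected it. H2AC7 was 5.13, 5.24, 5.13 and 5.58 with ST362, 5.43, 5.26, 5.26 and 5.67 with MEB55, and 5.78, 5.80, 5.44 and 5.82 with vehicle, changes of -0.44 ± 0.14 and -0.31 ± 0.14 (adjusted p = 0.188 and 0.476 in limma). All overlap of either analogue with vehicle came from vehicle 24 h replicate 1 at 5.44. H2AC11 changed by -0.42 ± 0.16 with ST362 and -0.09 ± 0.16 with MEB55 (adjusted p = 0.287 and 0.916 in limma). H3C10 was the H3 gene farthest below 0 with ST362, at -0.40 ± 0.16, against -0.30 ± 0.16 with MEB55 (adjusted p = 0.287 and 0.537 in limma).

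**Figure D3:**
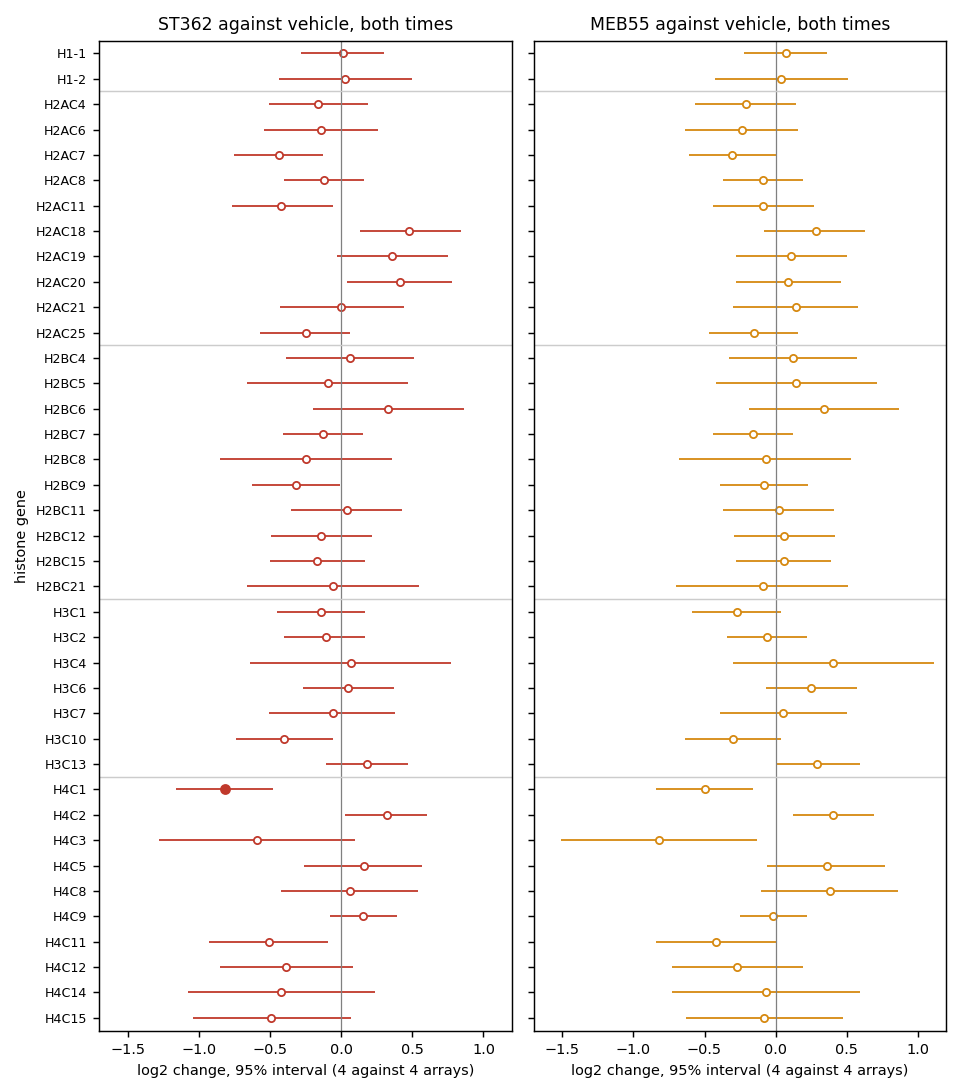
Log2 change of each histone gene over both times, ST362 (left) and MEB55 (right) against vehicle, with 95% intervals from the fit of 4 against 4 arrays; a filled point marks an adjusted p under 0.05. The 1 filled point is H4C1 with ST362 at -0.82, and intervals of the other genes reach from -1.51 to 1.11 over both panels.

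The 5 genes with described polyadenylated transcripts had estimated changes close to 0 over both times. Their median was -0.09 with ST362 (range -0.14 to 0.03) and 0.04 with MEB55 (range -0.24 to 0.14), and 0 of 5 passed or had an unadjusted p under 0.05 in limma. Of all 12290 genes 1905 with ST362 and 1503 with MEB55 had such a p, so 0 of 5 does not set these genes apart. H2BC12 was 12.85, 12.73, 12.36 and 13.11 with ST362, 12.94, 12.91, 12.88 and 13.11 with MEB55, and 12.55, 13.16, 12.84 and 13.04 with vehicle. The 3 treatments overlapped almost wholly, and the 95% intervals of its change were -0.49 to 0.22 with ST362 and -0.29 to 0.42 with MEB55. H1-2, a linker histone gene, was 11.84, 12.64, 12.23 and 11.88 with ST362, 11.96, 12.47, 12.23 and 11.98 with MEB55, and 11.63, 12.26, 11.95 and 12.62 with vehicle. Its changes were 0.03 ± 0.22 and 0.04 ± 0.22, smaller than the difference between replicates in each of the 6 groups. H2AC6 changed by -0.14 ± 0.19 and -0.24 ± 0.19, H2BC5 by -0.09 ± 0.26 and 0.14 ± 0.26, and H2BC21 by -0.06 ± 0.28 and -0.09 ± 0.28, with ST362 and MEB55 in that order. With SE of this size, an absence of change is not shown. The values also average the 2 times. H2AC6 with ST362 stood at -0.55 at 6 h and 0.27 at 24 h, and H2BC21 with MEB55 at 0.27 and -0.46. H2BC12 kept its sign between the times with either analogue.

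Other members among the brightest of their class had changes that did not pass. H3C4 was 6.17, 6.45, 5.76 and 7.07 with ST362, 7.16, 6.35, 5.91 and 7.39 with MEB55, and 5.87, 6.58, 6.02 and 6.72 with vehicle. Its highest values came from MEB55 24 h replicate 2, MEB55 6 h replicate 1 and ST362 24 h replicate 2, arrays of high HSPA6, while ST362 6 h replicate 1, also high in HSPA6, lay inside the vehicle range; this link was not tested. Its changes were 0.07 ± 0.33 and 0.40 ± 0.33 (adjusted p = 0.959 and 0.749 in limma). H3C1 changed by -0.14 ± 0.14 and -0.27 ± 0.14, H1-1 by 0.01 ± 0.13 and 0.07 ± 0.13, and H4C8 by 0.06 ± 0.22 and 0.38 ± 0.22. H3C13 has 2 tested probes that differ in sign with ST362, at 0.18 and -0.14 (adjusted p = 0.623 and 0.705 in limma), and with MEB55, at 0.29 and -0.02; it belongs to a set of near-identical H3 copies with H3C14 and H3C15.

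The histone genes moved together between the replicates of the vehicle groups. On vehicle 6 h replicate 2, 38 of 39 histone genes were higher than on replicate 1, with a median difference of 0.34, where 53.3% of all genes were higher with a median of 0.03. On vehicle 24 h replicate 2, 32 of 39 were higher than on replicate 1, with a median of 0.33, where 53.6% of all genes were higher with a median of 0.02. The count at 6 h was 39 when arrays were scaled to the 75th percentile of the signal, and 36 with cyclic loess. In the analogue groups replicate 2 was higher for 23 of 39 genes in ST362 6 h (median difference 0.11) and 13 in MEB55 6 h (-0.11). It was higher for 27 in ST362 24 h (0.30) and 26 in MEB55 24 h (0.22). Of 23 S-phase genes, replicate 2 was higher for 1 in ST362 6 h (median difference -0.53), 13 in MEB55 6 h (0.03), 15 in vehicle 6 h (0.16), 22 in ST362 24 h (0.52), 11 in MEB55 24 h (-0.00) and 12 in vehicle 24 h (0.01). By these medians the S-phase genes differed most between the ST362 replicates and the histone genes between the vehicle replicates, with ST362 24 h close behind. With scaling to the 75th percentile the histone median was 0.38 in ST362 24 h, above the 0.34 of vehicle 24 h. Vehicle 6 h replicate 1 also stood apart in its raw signal, with a 75th percentile of 149.3 against 115.1 to 125.4 on the other arrays; its part in the difference was not tested. The gap between vehicle replicates was larger than the median change of the 39 genes in each comparison with vehicle, and the median residual SD of a histone gene over the 6 groups was 0.29, against 0.24 over all genes.

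**Figure D4:**
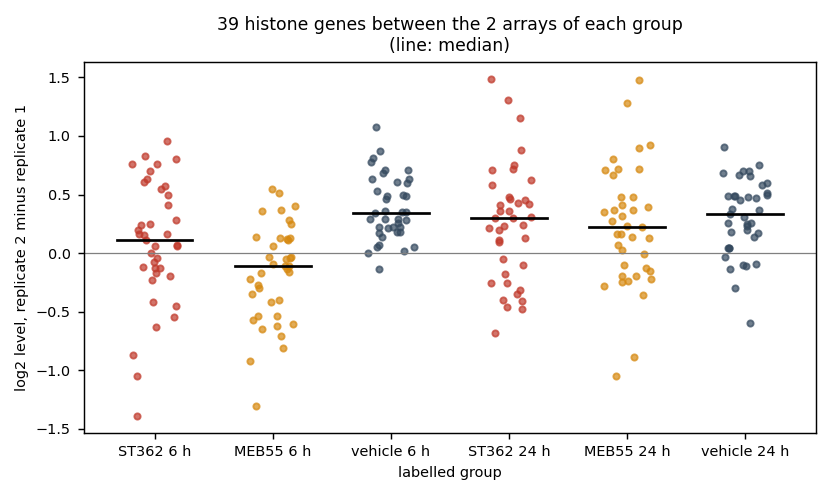
Log2 level of each of the 39 histone genes on replicate 2 minus replicate 1, for the 6 labelled groups; each point is a gene and the line is the median. In vehicle 6 h, 38 of 39 points lie above 0, and the medians are 0.34 and 0.33 in the vehicle groups and 0.30 in ST362 24 h.

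The analogues were also set against each other at the same ppm and time, 3 comparisons in all. At 6 h and at 24 h, 0 of 39 histone genes passed in limma and 0 had an unadjusted p under 0.05, where 0% of all genes passed and 350 of 12290 genes at 6 h and 429 at 24 h had such a p; the median difference, MEB55 minus ST362, was 0.07 at 6 h and 0.12 at 24 h. Over both times it was 0.10, with 28 above and 11 below 0, and 0 of 39 passed or had an unadjusted p under 0.05 in limma, where 0.0163% of all genes passed higher and 0.00814% lower and 1055 of 12290 had such a p. H2AC11 was the 1 gene whose MEB55 arrays, 5.52, 5.58, 5.52 and 6.00, all lay above its ST362 arrays, 5.31, 5.11, 5.47 and 5.42, against 1.8% of all genes higher and 2.12% lower; none lay wholly below. The largest differences over both times were 0.41 for H4C15 (95% interval -0.15 to 0.96), 0.35 for H4C14 (-0.31 to 1.01), 0.34 for H3C4 (-0.37 to 1.04) and 0.33 for H2AC11 (-0.02 to 0.68), and on the other side -0.32 for H2AC20 (-0.69 to 0.05). Intervals of the 39 genes reached between -0.92 and 1.04, so the data do not show that the analogues act alike on these genes. Arrays of the same time and replicate number deviated together between the analogues (r = 0.49 at 6 h and 0.48 at 24 h), so the 8 analogue arrays were also compared in 4 pairs, a fit chosen after the data were examined. Again 0 of 39 histone genes passed in limma, where 0.13% of all genes passed higher and 0.244% lower; 5 histone genes higher and 1 lower had an unadjusted p under 0.05, against 821 and 897 of 12290 genes. H4C15 differed by 0.65 and 0.46 in the 6 h pairs and by 0.48 and 0.04 in the 24 h pairs, and H4C14, its near-identical copy, by 0.28, 0.19, 0.85 and 0.08. MEB55 was thus the higher in all 4 pairs for either, with 95% intervals of 0.11 to 0.70 and 0.03 to 0.67 and adjusted p of 0.262 and 0.368 in limma. Other members, H2AC7, H2AC11 and H4C12 among them, were also higher in all 4 pairs, and H4C9 was lower in all 4. The share of all genes with such agreement was not counted, so it does not set any of these members apart. The effect at 24 h minus that at 6 h passed for 0 of 39 genes with either analogue in limma, where 0% of all genes passed; 1 histone gene, H2AC6 with ST362 at 0.82 ± 0.34, had an unadjusted p under 0.05 (adjusted p = 0.999), against 232 of 12290 genes.

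Genes that act on histone genes were read from lists, with both analogues over both times. Of all genes 0.399% passed lower and 0.366% higher with ST362, and 0.26% lower and 0.301% higher with MEB55. Of 8 tested genes of histone gene transcription, 1 passed with ST362 and none with MEB55. CCNA2, the cyclin of S phase and G2, fell with ST362 at -1.01 ± 0.19 (adjusted p = 0.0368 in limma) and stood at -0.80 ± 0.19 with MEB55 (adjusted p = 0.0935). Leaving out any 1 vehicle array, or replicate 2 of ST362 6 h, or replicate 1 of ST362 24 h, ended its ST362 call, with adjusted p between 0.0832 and 0.122. CCNE1, the cyclin E that activates NPAT through CDK2, stood at -0.52 ± 0.14 with ST362 and -0.11 ± 0.14 with MEB55, and HINFP, which binds H4 promoters, at 0.32 ± 0.15 with either; neither passed (adjusted p = 0.11, 0.853, 0.396 and 0.486). NPAT stood at 0.20 ± 0.16 with ST362 and 0.07 ± 0.16 with MEB55. Of 24 genes of 3' end processing, export and decay, none passed in limma, 2 having an unadjusted p under 0.05 with each analogue, against 1905 of 12290 genes with ST362 and 1503 with MEB55; SLBP stood at -0.03 ± 0.14 and 0.05 ± 0.14, and the list's median was -0.15 with ST362 and 0.03 with MEB55.

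Most histone chaperones, S-phase genes and replication-independent histones lay below 0 with either analogue. Of all 12290 genes 6314 lay below 0 with ST362 and 6364 with MEB55, a smaller share than in each of these lists. An unadjusted p under 0.05 was held by 1905 of all genes with ST362 and 1503 with MEB55. Of 20 chaperone genes 19 were below 0 with ST362 (median -0.23) and 17 with MEB55 (median -0.14); none passed in limma, with 4 and 2 at an unadjusted p under 0.05. CHAF1A and CHAF1B, subunits of the factor that places H3 and H4 on new DNA, stood at -0.56 ± 0.17 and -0.46 ± 0.14 with ST362. With MEB55 they stood at -0.13 ± 0.17 and -0.18 ± 0.14. HJURP was the lowest chaperone gene with either analogue, at -0.72 ± 0.22 with ST362 and -0.63 ± 0.22 with MEB55. Of 23 S-phase genes 22 were below 0 with ST362 (median -0.37) and 21 with MEB55 (median -0.20), and none passed in limma, with 10 and 5 at an unadjusted p under 0.05. Of 11 replication-independent histone genes, which are expressed outside S phase as well, 10 were below 0 with ST362 (median -0.11) and 9 with MEB55 (median -0.08). In limma 3 of them had an unadjusted p under 0.05 with ST362, 1 higher and 2 lower, and 2 with MEB55, both lower. With ST362 1 of the 11 passed, lower, where 0.399% of all genes passed lower and 0.366% higher. None passed with MEB55, where 0.26% of all genes passed lower and 0.301% higher. CENPA, the H3 variant of centromeres, fell with ST362 at -1.09 ± 0.17 (adjusted p = 0.0225 in limma) and stood at -0.82 ± 0.17 with MEB55 (adjusted p = 0.0555). The same 6 arrays, each left out in turn, ended its ST362 call, with adjusted p between 0.0566 and 0.0992. The comparisons of ST362 and MEB55 share the 4 vehicle arrays, so their directions are not independent.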

How the data were processed

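RNA of 12 U2OS samples was hybridised to Illumina HumanHT-12 bead arrays, and groups were taken from the sample labels. The authors deposited bead intensity averages from GenomeStudio (version not given in the sources used here), with neither background subtraction nor normalization, and 1 detection p-value per probe and array. A second deposited table holds linear intensity values that match quantile-normalized signals to within 0.364%, used as an alternative. The methods' rule (linear model of time and drug, unadjusted p under 0.05, a change above 2-fold, signal of at least 100 in 1 group) was another.

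Signals of 47313 probes were corrected by normexp from the detection p-values (offset 16), quantile normalized and log2-transformed (neqc method, limma 3.58.1, R 4.3.3). The platform table gives 1 symbol for 30109 probes, several for 8 and none for 17196. A probe was tested if detected (p under 0.05) on both arrays of any group, which 22186 were. lmFit and eBayes were run with the 6 groups in 1 fit and the 3 treatments in another, and p-values were adjusted by Benjamini-Hochberg across these probes. Genes were read from their brightest probe. The number of arrays limits the precision. The fits were also run on simulated arrays with known changes and independent noise. That simulation held no correlation between arrays, so it does not bear on p-values where arrays deviated together. The members, lists and fits over both times were chosen with earlier results of these data known.

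Named genes were those past the test, those whose 4 analogue arrays do not overlap the 4 vehicle arrays, the 2 brightest of each class, the polyadenylated list, genes whose probes differ in sign, and up to 5 genes of another list with the smallest p. H4C5, H4C9, H4C11, H4C12, H4C14, H4C15, H2AC4, H2AC7, H2AC11, H2AC20, H2AC21, H3C6, H3C10, NPAT, SLBP and CHAF1B were named after their values were seen. Same-numbered arrays of 1 time deviated together for MEB55 and ST362 (r = 0.49 and 0.48) but not for an analogue and vehicle (-0.17 to 0.08); the labels do not say what the number marks. Alternatives changed the background correction, scaling, filter, variance model, pairing, arrays and probe rule.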

Additional observations from a re-analysis of the deposited data

Results flagged for a closer look

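In 4 of 117 sets of 4 arrays of 1 treatment, 1 array lay far from the other 3 by Dixon's test at the 95% level, where chance flags about 1 in 20 sets. Values are log2 levels minus the vehicle mean. H3C1 stood at -0.53 on ST362 24 h replicate 1, against -0.05 to 0.05 on the other ST362 arrays. H2AC11 stood at 0.26 on MEB55 24 h replicate 2, against -0.22 to -0.16 on the other MEB55 arrays. H2BC4 stood at 0.58 on MEB55 24 h replicate 2, against -0.09 to 0.02 on the other MEB55 arrays. H2AC7 stood at -0.27 on vehicle 24 h replicate 1, against 0.07 to 0.11 on the other vehicle arrays.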

How the results depend on the processing

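Of the counts of histone genes past the test, the count of 1 for ST362 against vehicle over both times (H4C1) fell to 0 without background correction, with an offset of 50, with scaling to the 75th percentile, with the authors' series values, without the probe filter, over probes or histone genes detected on all 12 arrays (which leave out H4C1), by the methods' rule and with time as a covariate; the last and the restriction to genes detected on all arrays were chosen after seeing the data. It ranged from 0 to 1 when 1 array at a time was left out. The other counts were 0 under every alternative run. H4C1 itself kept its direction under all of these, from -0.90 to -0.28. With the replicate number as a block the counts were 0 in each labelled comparison and 1 for ST362 over both times. For an analogue and vehicle at 1 time, the deviations of same-numbered arrays correlated by r between -0.17 and 0.08. Such an r cannot decide whether the numbers pair these arrays, as analogue replicates differed widely in HSPA6 and vehicle replicates did not. For MEB55 against ST362, where same-numbered arrays deviated together, the count in 4 pairs was 0 and the median 0.10. Crossing the numbers where r was under -0.1, for MEB55 at 6 h and ST362 at 24 h, gave 0 calls in each.

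The medians of the histone genes moved by more than the spread between replicates (0.20) when 1 vehicle array was left out: -0.19 to 0.19 for ST362 at 6 h (0.19 without vehicle 6 h replicate 2), -0.16 to 0.23 for MEB55 at 6 h, -0.27 to 0.17 for MEB55 at 24 h, and for the 24 h effect minus the 6 h effect -0.24 to 0.10 with ST362 and -0.27 to 0.10 with MEB55. Named genes with small changes that had not passed turned sign when 1 array was left out. With ST362 over both times these were H4C8 (-0.12 to 0.27), H3C4 (-0.17 to 0.27), H2BC5 (-0.32 to 0.08), H2BC21 (-0.24 to 0.19), H1-1 (-0.04 to 0.06) and H1-2 (-0.13 to 0.20). With MEB55 they were H4C14 (-0.24 to 0.09), H4C15 (-0.20 to 0.05), H2AC19 (-0.00 to 0.22), H2AC11 (-0.20 to 0.01), H2BC5 (-0.09 to 0.32), H2BC12 (-0.05 to 0.15), H2BC21 (-0.31 to 0.15), H1-1 (-0.02 to 0.18) and H1-2 (-0.12 to 0.21). Scaling to the 75th percentile turned H4C8 with ST362 to -0.03. The call of CENPA with MEB55, missed at 0.0555, was made under 4 alternatives and without ST362 6 h replicate 2 or MEB55 24 h replicate 1, at adjusted p of 0.0419 to 0.0491; those of CCNA2 and CENPA with ST362 were lost without the probe filter, at 0.0895 and 0.0753, and that of CCNA2 with time as a covariate, at 0.0528. The causes of these changes were not tested. Signals near background limit 20 of the 39 members, and 2 arrays a group limit the labelled comparisons.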
